A study of Homo sapiens with 32 samples.

Results

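Single-exon protein-coding genes are genes whose RNA is never spliced: every annotated transcript consists of 1 exon. On the GRCh37 build, 1031 of 20163 protein-coding genes met this definition. The 52 replication-dependent histone genes and 6 genes named in the rule (immediate early genes and others) were also set aside, which left 973 genes of 64449 genes of any type. These were followed in iCLIP libraries, in which UV light crosslinks protein to RNA in living cells and reverse transcription stops beside the crosslinked base. Each deposited position carries the number of unique cDNAs that stopped there, called tags. The samples were 32 lane runs of 12 libraries, 3 libraries in each of 4 groups, all from HEK293T FlpIn cells (an established line of human embryonic kidney origin with a recombination site for transgenes). Alyref, Chtop and Nxf1 libraries came from cells expressing that protein with a FLAG tag under a tetracycline-inducible promoter, and Control libraries from cells with an empty FLAG construct. Induction lasted 48 h with 10 ng/mL tetracycline for Alyref and Chtop and 5 ng/mL for Nxf1, and the labels give no dose for Control. All groups shared the anti-FLAG antibody, and only the tagged protein, in 1 cell line, was captured. The labels do not say whether replicates came from separate cultures, so p-values measure the spread between libraries, which may be technical.

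Messenger RNA leaves the nucleus through the export receptor Nxf1, which is loaded by adaptor proteins of the TREX (transcription-export) complex. Alyref is the classical adaptor and contacts both the cap-binding complex at the 5′ end and the exon junction complex that splicing leaves upstream of each junction. Chtop is a co-adaptor that binds the same RNA helicase, Ddx39b, and helps Nxf1 to take up RNA. Single-exon mRNAs carry a cap and a poly(A) tail but have no exon junction, and comparing them with spliced mRNAs addresses where the export factors bind when splicing is absent.

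The most tagged base of 9 of the 10 genes with most tags is shown with 10 bases on each side, since it is the closest these data come to a contact site. The crosslinked base is in capitals, and T stands for U in the RNA.
PURB, chr7:44923351-44923371, minus strand, 3′ UTR: tccattttttTaaaaaaatgg
EXOSC6, chr16:70281956-70281976, minus strand, 3′ UTR: tctttttctcTttttttttga
SOX4, chr6:21597479-21597499, plus strand, 3′ UTR: tgctggacttTaaaaaaacaa
HNRNPA0, chr5:137087655-137087675, minus strand, 3′ UTR: atttggaagtTttgccatcaa
ATXN7L3B, chr12:74931879-74931899, plus strand, 5′ UTR: gtttacaaatTaaaatggagg
EXOC8, chr1:231468650-231468670, minus strand, 3′ UTR: attatcggcaCttgtattttg
FOXC1, chr6:1613287-1613307, plus strand, 3′ UTR: aaagatatttTtctaaacaga
NRARP, chr9:140194872-140194892, minus strand, 3′ UTR: taaacccaatTttaaagggcg
FEM1A, chr19:4793648-4793668, plus strand, coding sequence: ggccatcatgAatgccctgat

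The crosslinked base was U in 7 of these 9 sites, C in 1 and A in 1. None of the sites was deep. The PURB base held 6 tags, all from Chtop 2, and the SOX4 base held 3 from Alyref 2 and 3 from Chtop 2. The HNRNPA0 base held 1 tag in each of 4 libraries (Alyref 2, Alyref 3, Chtop 2 and Chtop 3), and the ATXN7L3B base held 3 tags from Nxf1 3 and 1 from Chtop 2. In EXOC8 the base shown was 1 of 13 with 2 tags each, and in EXOSC6 1 of 4 with 5 tags. In FEM1A it was 1 of 4 with 2 tags, from Alyref 2, and in NRARP 1 of 2 with 3 tags. Where bases tied, the lowest coordinate was taken, which is the most 3′ of them on the minus strand. Over all the single-exon genes, 6989 bases were crosslinked, of which 6532 (93.5%) held 1 tag, 8 held 5 or more, and 384 (5.49%) were hit in 2 or more libraries. Single-exon genes offered 1382802 bases, so bases with 1 tag are likely at this depth. How contacts are distributed along these RNAs cannot be read from them. Counts per gene or per region are used from here on.

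Depth ranged from 81307 to 631704 tags in Alyref, from 47052 to 538844 in Chtop, from 8134 to 179346 in Nxf1 and from 7017 to 46628 in Control libraries. Per the labels, replicate 2 of every group was run on other HiSeq lanes than replicates 1 and 3, and each set of lanes held all 4 groups. Nxf1 1 and Control 1 were the shallowest: 1 tag there equals 123 and 143 CPM (tags per 1000000 tags of the library), so that a single tag can make a gene look high. Of 6 markers of HEK293T cells, 5 had tags, with 670 on IGF2BP1, 208 on LIN28B, 50 on PAX2, 44 on NEFL and 1 on NEFM. The sixth, SOX2, itself a single-exon gene, had 0 because its bases lie within another annotated gene. Of 6 markers of other cell types, COL1A1 had 47 tags, HBB 12, PTPRC 3, ALB 1, COL1A2 1 and CD3E 0, so the 2 lists overlapped in tags. Tags lay on the sense strand of single-exon genes in 79.3% to 93.4% per library.

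Most single-exon genes had no tag. Of the 973, 229 held at least 1 tag in the 12 libraries, 101 held 10 or more in the 9 libraries of the 3 factors, 68 held 30 or more, and 17 held 100 or more. The 744 without a tag included 184 that lie wholly in bases shared with another gene on the strand, where a tag could not be assigned. In all, 7451 factor tags fell on single-exon genes, 40.0% of them on the 10 genes with most tags and 60.2% on the first 25. The 3 Control libraries held 109 tags, spread over 54 genes, with at most 9 on any gene (PURB).

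Canonical transcripts of single-exon genes held 157, 1079 and 934 tags in replicates 1, 2 and 3 of Alyref and 127, 2202 and 2315 in those of Chtop. The Nxf1 replicates held 35, 355 and 243, and those of Control 10, 56 and 43. As a share of the library, Alyref gave 0.193%, 0.171% and 0.155% and Chtop gave 0.270%, 0.409% and 0.539%. The shares were 0.430%, 0.298% and 0.135% in Nxf1, and 0.143%, 0.120% and 0.116% in Control. Every Chtop library gave a larger share to single-exon genes than every Alyref and Control library, while the Nxf1 libraries overlapped with both other factors. The Chtop mean, 0.406% ± 0.135 (SD, n = 3), differed from the 6 libraries of the other 2 factors by 0.175 percentage points (two-sided exact permutation test, p = 0.119, adjusted p = 0.306). Shares of a library depend on how many tags fall in introns and non-coding RNA, so densities on exons were compared next.

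Tag density on single-exon genes was set against that on exons of 18997 multi-exon protein-coding genes in the same library, as a log2 ratio. The Alyref replicates lay at -2.01, -2.37 and -2.25, and those of Chtop at -1.45, -1.35 and -1.12. Nxf1 gave -1.09, -1.01 and -1.11, and Control gave -2.15, -1.20 and -0.42. All 3 Alyref libraries lay below all 6 libraries of Chtop and Nxf1, and all 3 Nxf1 libraries above the other 6, while Control spanned nearly the whole range. The Alyref mean was -2.21 ± 0.18 (SD, n = 3), 1.02 log2 units below the mean of the other factors (factor minus others -1.02, exact permutation test, p = 0.0238, adjusted p = 0.143). The Nxf1 mean of -1.07 ± 0.05 lay 0.69 above the others (exact permutation test, p = 0.0238, adjusted p = 0.143). Here 0.0238 is the smallest p that 3 libraries against 6 can give. Unmasked bases of untagged genes enter both sides, so the size of a ratio also depends on how many genes of each kind had tags. Only differences between libraries are read.

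The ratio was also taken against exons of spliced genes by their place. Against first exons, Alyref lay at -2.82 ± 0.17, Chtop at -1.35 ± 0.21 and Nxf1 at -1.23 ± 0.18, with an Alyref difference of -1.53 (exact permutation test, p = 0.0238, adjusted p = 0.143). For middle exons the values were -2.83 ± 0.20, -1.43 ± 0.25 and -1.20 ± 0.07, and the Alyref difference was -1.51 (exact permutation test, p = 0.0238, adjusted p = 0.143). Against last exons the factors lay closer together, at -1.50 ± 0.15, -1.27 ± 0.11 and -1.003 ± 0.05, and the Alyref difference was -0.37 (exact permutation test, p = 0.0476, adjusted p = 0.245). The density on single-exon genes is the numerator in all of these.

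**Figure D1:**
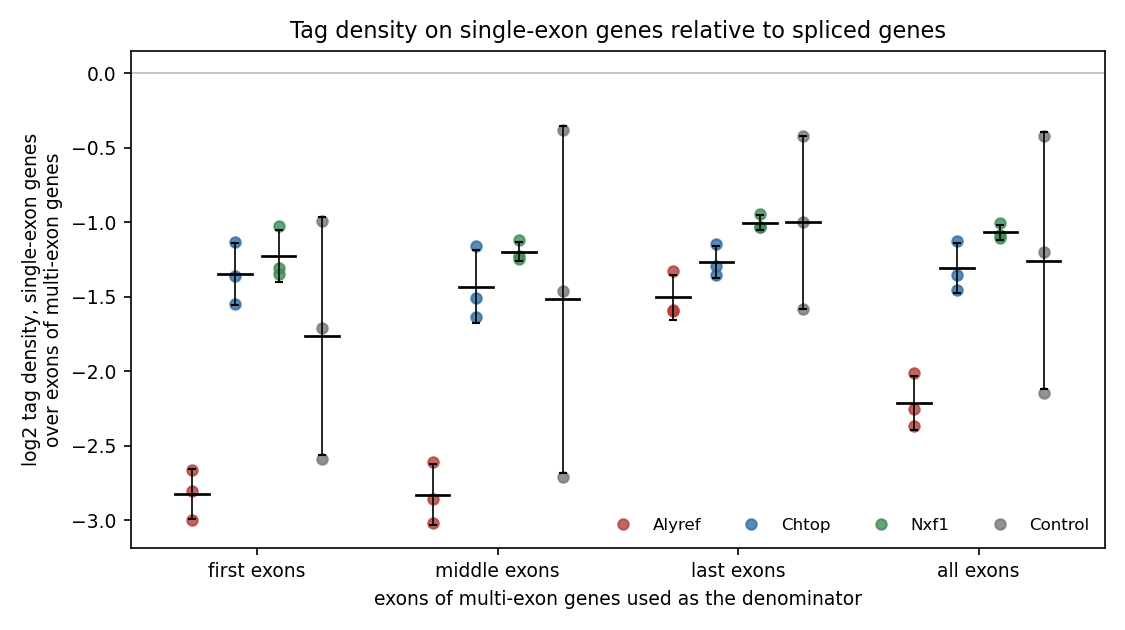
Log2 ratio of tag density on single-exon genes to that on first, middle, last or all exons of multi-exon genes, with 1 point per library and 3 libraries per group. Bars give the mean and lines the SD. Alyref libraries lie apart from Chtop and Nxf1 against first, middle and all exons (means -2.82, -2.83 and -2.21) and nearer to them against last exons (mean -1.50), and Control libraries range widely.

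Position along the RNA was measured as the mean place of the tags, from 0 at the 5′ end to 1 at the 3′ end, with each gene weighted equally. In single-exon genes the libraries of the 3 factors overlapped: Alyref averaged 0.447 ± 0.0169, Chtop 0.465 ± 0.0177 and Nxf1 0.452 ± 0.0293. In spliced transcripts the means were further apart, as Alyref averaged 0.395 ± 0.00876, Chtop 0.488 ± 0.0129 and Nxf1 0.463 ± 0.0104. The Alyref mean was thus further 3′ in single-exon than in multi-exon genes in each library, by 0.0399, 0.0649 and 0.0518, whereas the Chtop difference was -0.0225 ± 0.00479 and the Nxf1 difference -0.0109 ± 0.0365. The Alyref shift stood 0.0689 above that of the other factors (exact permutation test, p = 0.0238, adjusted p = 0.143). The Control difference was 0.0443 ± 0.0837, from 109 tags. With merged exons of all annotated transcripts in place of the canonical transcript, the Alyref shift was 0.00872 ± 0.0158 with a library below 0 (-0.00745), while its difference from the other factors was 0.0659.

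**Figure D2:**
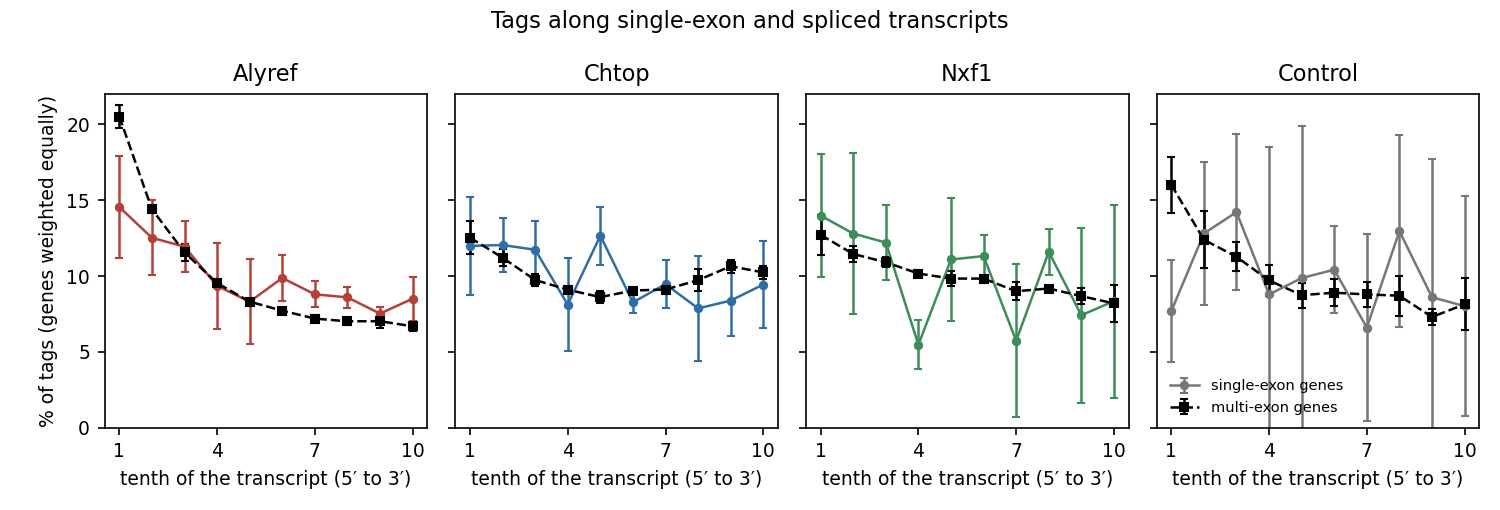
Percent of tags in each of 10 equal bins of the transcript from 5′ to 3′ in single-exon genes (coloured) and multi-exon genes (black, dashed), genes weighted equally, mean and SD over 3 libraries, with error bars cut at 0. The first bin held 14.6% ± 3.36 of Alyref tags in single-exon genes and 20.5% ± 0.732 in multi-exon genes, and the Chtop and Nxf1 lines for the 2 kinds of gene overlap there.

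Transcripts were also divided into 10 equal bins. The first bin of single-exon transcripts held 14.6% ± 3.36 of Alyref tags, and no Alyref library reached the lowest value in spliced transcripts (highest 18.2%, lowest 19.7%). For Chtop the first bin of multi-exon genes held 12.5% ± 1.11 and that of single-exon genes a similar share, 10.1% to 15.7%. For Nxf1 the first bin held 14.0% ± 4.05 in single-exon and 12.7% ± 1.32 in multi-exon genes. Alyref means still declined from the first bin to the last, which held 8.51% ± 1.46 in single-exon genes. Control libraries held 7.69% ± 3.35 in the first bin of single-exon genes and 16.0% ± 1.86 in that of spliced genes.

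To keep untagged genes out, densities within the transcript were also taken over the 101 single-exon and 11740 multi-exon genes with 10 or more factor tags. The first 200 nt of single-exon genes stood above the rest of the transcript in all 3 Alyref libraries, by 0.67 ± 0.07 on the log2 scale, with values from 0.63 to 0.75. In Chtop the difference was 0.19 ± 0.38 and in Nxf1 0.32 ± 0.61, so those libraries fell on both sides of 0, and in Control it was -0.36 ± 0.16. Control libraries held only 0, 2 and 3 tags in the first 200 nt of single-exon genes, and Nxf1 1 held 3. The Control value thus leans on the pseudocount, and its SD is no measure of precision. Over all single-exon genes of 300 nt or more, untagged ones included, the sign was the opposite: -0.30 ± 0.14 for Alyref, with all 3 libraries below 0, against -0.82 ± 0.44 in Chtop and -0.60 ± 0.57 in Nxf1. In multi-exon genes Alyref gave 1.24 ± 0.02, Chtop -0.02 ± 0.20, Nxf1 0.47 ± 0.46 and Control 0.99 ± 0.03. Among genes with 10 or more tags, Alyref density was thus higher near the 5′ end in both kinds of gene, with all single-exon values below all multi-exon values.

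The 3′ UTR was compared with the coding sequence in the 100 such single-exon genes and 11327 multi-exon genes with both. The log2 ratio of densities in single-exon genes averaged 0.26 ± 0.23 in Alyref, 0.20 ± 0.07 in Chtop and 0.47 ± 0.37 in Nxf1, and it was above 0 in all 9 factor libraries. Over all 766 single-exon genes with both regions the means were larger, at 1.42 ± 0.20, 1.33 ± 0.07 and 1.69 ± 0.26, and without the 10 genes with most tags the Alyref mean was 0.85. Spliced genes gave -1.26 ± 0.09, -0.22 ± 0.11 and -0.20 ± 0.04. The factor libraries of single-exon and multi-exon genes did not overlap in this ratio. The distance between the 2 kinds of gene was widest for Alyref, and in single-exon genes the 3 factors overlapped one another. Control gave 0.74 ± 0.87 and -0.47 ± 0.56.

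**Figure D3:**
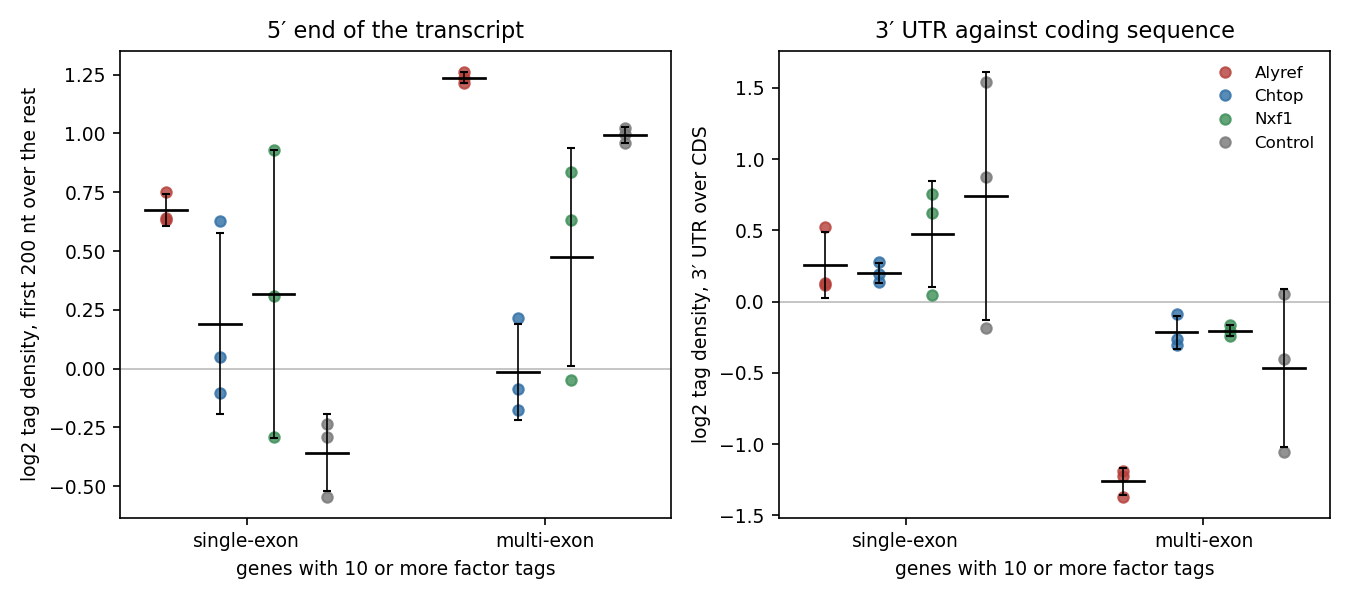
Log2 density of the first 200 nt over the rest of the transcript (left) and of the 3′ UTR over the coding sequence (right) in genes with 10 or more factor tags, with 1 point per library, bars for means and lines for SD (n = 3). Alyref lies at 0.67 in single-exon and 1.24 in multi-exon genes on the left, and at 0.26 and -1.26 on the right.

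Genes differed among themselves in where the tags lay. Among the 25 single-exon genes with most tags, density was higher in the 3′ UTR than in the coding sequence in 11. SOX4 had 116 tags per kb in its 3′ UTR and 40.8 in its coding sequence, and PURB was nearly level at 87.2 and 79.1. HNRNPA0 ran the other way, with 20.8 tags per kb in the 3′ UTR, 72.1 in the coding sequence and 131 in the 5′ UTR, and PGBD4 had 7.95 and 35.9.

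In tags per gene over whole gene spans, the clearest difference between factors at single-exon genes was between Alyref and Chtop. In density against exons of spliced genes, Alyref (-2.21) lay further from Nxf1 (-1.07) than from Chtop (-1.31). Among the 101 genes with 10 or more factor tags, mean CPM was higher in Chtop than in Alyref in 84, against 44.4% of the 14187 genes of any type with that many tags. In 25 of the 101 (24.8%) every Chtop library stood above every Alyref library, a pattern found in 7.82% of all such genes. The opposite, every Alyref library above every Chtop library, held for 0 of the 101 against 13.0% of all genes. The cut of 10 tags sums the factors, and Chtop supplied 4645 of the 7451 factor tags on single-exon genes. Genes high in Chtop could thus enter the 101 more easily. Intronic tags count for spliced genes among the 14187, while single-exon genes have no introns. How far the cut or the introns account for these differences from all genes was not tested. Over 100 genes with tags in both groups, the log2 ratio of Chtop to Alyref mean CPM had a median of 1.08 and quartiles of 0.63 and 1.76, and it ranged from -2.40 to 3.51. It was above 0 in 63 of 68 genes with 30 or more tags. The lowest of those were SDHAF1, an assembly factor of succinate dehydrogenase, at -0.72, and the melanoma antigen gene MAGEF1, at -0.64. The ratio went weakly with length (Pearson's r = 0.21, Spearman's rho = 0.17), GC content (-0.09 and -0.11) and U content (0.17 and 0.17) across the 100 genes, which share libraries and depth.

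**Figure D4:**
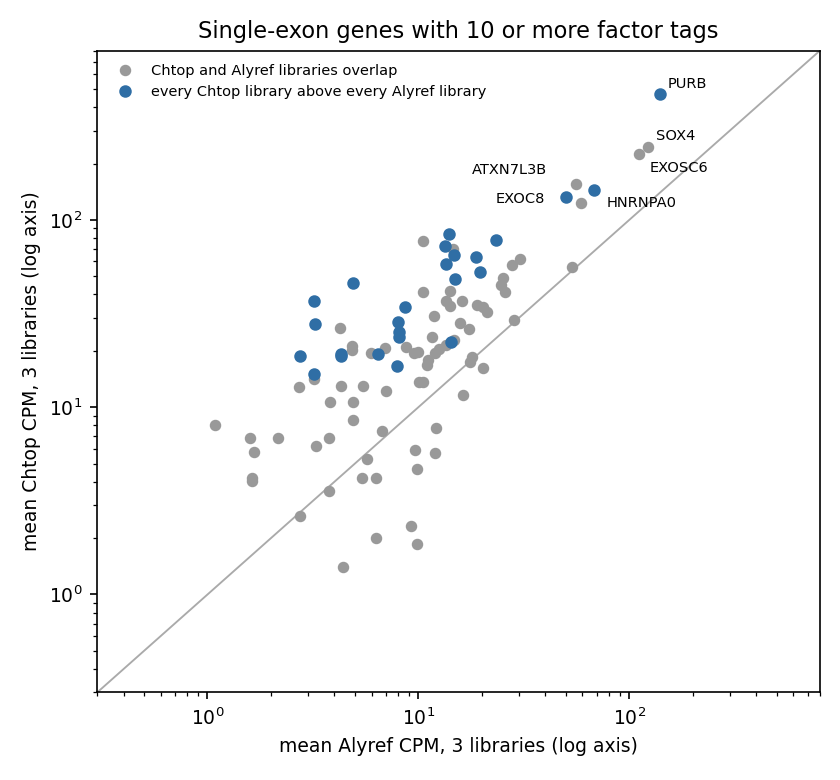
Mean Chtop CPM against mean Alyref CPM (3 libraries each, log axes) for 100 single-exon genes with 10 or more factor tags and a tag in both groups; the line marks equal values. Blue points are the 25 genes in which every Chtop library exceeded every Alyref library, and 84 points lie above the line.

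The edgeR quasi-likelihood test over all genes gave the same direction. After the filter on low counts, 3240 genes were tested, of which 6 were single-exon genes. All 6 were lower in Alyref than in Chtop with an adjusted p under 0.05, a call made for 9.85% of all genes tested. The DESeq2 Wald test on the same counts called 1 of the 6 lower in Alyref, and 67 of all 3240 genes. PURB, which encodes a DNA- and RNA-binding protein with affinity for purine-rich strands, held 10, 88 and 94 tags in Alyref, 15, 272 and 252 in Chtop, 7, 15 and 16 in Nxf1 and 0, 5 and 4 in Control. That is 123, 139 and 156 CPM in Alyref and 319, 505 and 587 CPM in Chtop, with no overlap, and a log2 fold change of -1.92 (SE 0.32, edgeR adjusted p = 0.000202). It lies on chr7:44915898-44925129, minus strand, and held 10.3% of all factor tags on single-exon genes.

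Tags on EXOSC6, a subunit of the RNA exosome (chr16:70280681-70285843, minus strand), numbered 9, 75 and 63 in Alyref, 5, 134 and 139 in Chtop, 1, 14 and 16 in Nxf1 and 1, 1 and 0 in Control. Chtop 1, at 106 CPM, lay among the Alyref libraries (104 to 119 CPM), and Chtop 2 and 3 above them at 249 and 324. The log2 fold change was -1.33 (SE 0.29, edgeR adjusted p = 0.00182). In this gene 52.5% of 30-mers are unique in the genome, so its counts may miss reads.

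SOX4, a high-mobility-group transcription factor, lies on chr6:21593982-21598850, plus strand. It held 14, 65 and 55 tags in Alyref, 8, 105 and 160 in Chtop, 4, 19 and 23 in Nxf1 and 1, 4 and 1 in Control. In CPM, Alyref 1 (172) and Chtop 1 (170.0) were level while Chtop 2 and 3 (195 and 373) lay above Alyref 2 and 3 (103 and 91.2). Its log2 fold change was -1.41 (SE 0.33, edgeR adjusted p = 0.0029). Per length it was the densest single-exon gene, with 93.0 factor tags per kb against 88.3 for EXOSC6, 83.3 for PURB and a median of 14.4 over the 101 genes.

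HNRNPA0, a nuclear ribonucleoprotein that binds AU-rich elements, had 86.1, 50.7 and 68.0 CPM in Alyref and 128, 128 and 177 in Chtop, without overlap (log2 fold change -1.37, SE 0.36, edgeR adjusted p = 0.0086). For ATXN7L3B, a paralog of a subunit of the deubiquitinating module of SAGA, the values were 98.4, 31.7 and 38.1 CPM in Alyref against 85.0, 154 and 226 in Chtop, overlapping through Alyref 1 (log2 fold change -2.22, SE 0.37, edgeR adjusted p = 0.000202). EXOC8, a subunit of the exocyst that tethers secretory vesicles, had 86.1, 42.7 and 21.6 CPM in Alyref and 106, 106 and 186 in Chtop, without overlap (log2 fold change -2.01, SE 0.44, edgeR adjusted p = 0.002). The shallow first replicates rested on 4 to 8 tags for each of these genes in these groups.

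These calls depended on the tool and on single libraries. Without Alyref 2, 1 of the single-exon genes was called lower in Alyref than in Chtop, and without Alyref 3 or without Chtop 3, 2 were. Calls lower in Alyref also became fewer over all genes. They went from 319 of 3240 to 58 of 2992 without Alyref 2, 53 of 3000 without Alyref 3 and 111 of 2921 without Chtop 3. Counting exonic tags only, which takes intronic tags of spliced genes out of the totals, 1134 genes were tested and the 5 single-exon genes among them were all lower in Alyref, against 18.5% of genes. The fold changes were then smaller, at -1.75 for ATXN7L3B, -1.48 for PURB, -1.005 for SOX4 and -0.91 for both HNRNPA0 and EXOSC6.

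Without the filter on low counts, the test took in 28968 genes and the 229 single-exon genes with any tag. It called 24 of the 229 lower in Alyref than in Chtop (1.17% of all genes) and 0 higher (0.376% of all genes). An unadjusted p under 0.05, in either direction, was found for 72 of the 229, and the share over all genes was not taken. The 24 included the 6 above and 18 of the 25 genes with most tags. With exonic tags and no filter, 20 were called (2.16% of all genes). Leaving out Alyref 3 left 0 single-exon calls, Alyref 2 left 1 and Chtop 3 left 5, and over all genes the calls lower in Alyref then numbered 0, 3 and 32.

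Among signalling proteins, P2RY1, a receptor for extracellular ADP, had the largest fitted difference of the 24. It held 1, 8 and 4 tags in Alyref, 0, 28 and 77 in Chtop, 1, 1 and 0 in Nxf1 and 0, 0 and 1 in Control. Chtop 2 and 3 were high, Chtop 1 had none, and the log2 fold change was -3.48 (edgeR adjusted p = 7.47e-08). RHOB, a small GTPase of endosomes, had 36.9, 30.1 and 9.95 CPM in Alyref and 21.2, 63.1 and 39.6 in Chtop, which overlapped. NRARP, a regulator of Notch signalling, had 12.3, 44.3 and 34.8 CPM in Alyref, 21.2, 59.4 and 105 in Chtop and 0, 109 and 27.9 in Nxf1, and was not among the 24.

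Genes of RNA-processing proteins among the 24 follow. CSTF2T, a paralog of the cleavage stimulation factor subunit that binds downstream of poly(A) sites, had 36.9, 7.92 and 24.9 CPM in Alyref and 85.0, 66.8 and 81.5 in Chtop, without overlap. RBM15B, an adaptor of the m6A methyltransferase complex, had 0, 15.8 and 24.9 CPM in Alyref and 42.5, 57.5 and 74.5 in Chtop, also without overlap. PCBP1, a poly(C)-binding protein, overlapped, with 24.6, 9.50 and 6.63 CPM in Alyref and 21.3, 35.3 and 53.5 in Chtop.

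HEXIM1, an inhibitor of the elongation kinase P-TEFb, was among the 24, with 123, 30.1 and 23.2 CPM in Alyref and 170.0, 100.2 and 97.8 in Chtop, which overlapped through Alyref 1 (log2 fold change -1.70, edgeR adjusted p = 0.00956). FOXC1, a forkhead factor, was not, and its log2 ratio of mean CPM was 0.07. It had 73.8, 47.5 and 39.8 CPM in Alyref, 0, 77.9 and 90.8 in Chtop and 0, 159 and 55.8 in Nxf1. The linker histone H1-10, which is made outside S phase too, had 24.6, 19.0 and 19.9 CPM in Alyref and 0, 42.7 and 53.5 in Chtop, and was not among the 24 either.

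Of the 6 kelch and BTB genes, 4 had a tag and 3 were among the 24, beside 1.17% of all genes. KBTBD6, a kelch and BTB protein, had 24.6, 19.0 and 14.9 CPM in Alyref and 42.5, 39.0 and 76.8 in Chtop, without overlap. Its paralog KBTBD7 had 0, 6.33 and 3.32 CPM against 63.8, 9.28 and 37.3 and the highest log2 ratio of mean CPM, 3.51, on 34 factor tags. KCTD12, a BTB protein that associates with GABA-B receptors, had 36.9, 17.4 and 6.63 CPM in Alyref and 0, 35.3 and 67.5 in Chtop. FEM1A, a substrate receptor of cullin ligases, was among the 24 too, with 0, 19.0 and 24.9 CPM in Alyref and 21.3, 100.2 and 88.5 in Chtop. Chtop 1 lay among the Alyref values, and 67.5% of its 30-mers are unique. Other large fitted differences were -2.93 for the zinc finger gene ZXDA, -2.71 for the transposase-derived PGBD4, -2.65 for TMEM203 and -2.61 for WDR5B (edgeR adjusted p = 0.0414, 6.85e-05, 0.00757 and 0.000785). Of the genes with most tags not yet named, B3GALT6, a galactosyltransferase of proteoglycan synthesis, ADO, a thiol dioxygenase, CCDC8 and TMEM185B were among the 24, while TSPYL4, C6orf120 and PNMA1 were not.

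Chtop was also set against Nxf1. Of the 6 tested genes, 4 were higher in Chtop, against 15.4% of all genes tested. The log2 fold changes were 2.37 for EXOC8, 1.83 for ATXN7L3B, 1.69 for PURB and 1.16 for EXOSC6 (edgeR adjusted p = 0.00813, 0.0084, 0.00241 and 0.0198). In PURB, Nxf1 1 ran against this at 861 CPM, from 7 tags, while Nxf1 2 and 3 lay at 126 and 89.2 CPM. With exonic tags only, 0 of the 5 tested genes differed between Chtop and Nxf1 in the edgeR test (37.1% of all genes did), 0 had an unadjusted p under 0.05, and DESeq2 called 0 in the main table. Log2 fold changes were then 0.65 for ATXN7L3B, 0.62 for PURB, -0.00017 for EXOSC6 and -0.56 for HNRNPA0. The median log2 fold change over all genes was 0.04 in the main table and 0.13 with exonic tags only.

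Without the filter, 15 single-exon genes were higher in Chtop than in Nxf1 (1.96% of all genes) and 2 were lower (0.880%). FANCF, an adaptor in the Fanconi anaemia repair complex, held 2, 14 and 15 tags in Chtop and 0 in all 3 Nxf1 libraries, and TBCC, a tubulin-folding cofactor, held 0, 16 and 15 against 0. RBMXL2, a testis paralog of the splicing protein RBMX, held 0, 3 and 0 tags in Chtop and 1, 3 and 6 in Nxf1. The other was MTRNR2L1, a nuclear copy of mitochondrial rRNA sequence, with 0, 2 and 1 tags in Chtop and 0, 1 and 9 in Nxf1, so that it rested on Nxf1 3. Of the 101 genes with 10 or more factor tags, 16 (15.8%) had every Chtop library above every Nxf1 library, against 9.95% of all genes, and 1 (0.990%) the reverse, against 3.48%. The cut on summed tags and the introns of spliced genes limit this comparison with all genes too.

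Alyref and Nxf1 were not told apart by the main test at any of the 6 genes (edgeR, 0 called, 1 with an unadjusted p under 0.05, 4.75% of all genes called, and DESeq2 called 0). SOX4 was that gene, with a log2 fold change of -0.82 (edgeR adjusted p = 0.244). With exonic tags only, SOX4 (-1.58, edgeR adjusted p = 0.0008) and HNRNPA0 (-1.47, edgeR adjusted p = 0.0202) were lower in Alyref, against 14.7% of all genes.

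Against Control, which measures the background of the procedure, 4 of the 6 genes were higher in Chtop (9.04% of all genes tested). EXOSC6 differed by 3.45, ATXN7L3B by 2.30, PURB by 2.28 and SOX4 by 1.94 (edgeR adjusted p = 0.00358, 0.0489, 0.00583 and 0.0309), and Control held 2, 3, 9 and 6 tags on them. Without the filter 5 genes were called (1.18% of all genes), and with exonic tags only 0 were, by the edgeR test, with 2 at an unadjusted p under 0.05. The log2 fold changes stand beside a median over all genes of 0.16 in the main table and 0.44 with exonic tags only. Neither Alyref nor Nxf1 differed from Control at any of the 6 genes in the edgeR test, with 1 at an unadjusted p under 0.05 in each, and DESeq2 called 0 in both. Over all genes 0.123% and 0.0309% were called, so these contrasts made few calls on any kind of gene. They compare counts scaled per library, not total yield, and so cannot decide whether Alyref or Nxf1 stood above background at these genes.

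Gene families differed widely in detection. Of 204 olfactory receptor genes 2 had a tag (1 each in Alyref and Chtop), as did 2 of 87 keratin-associated protein genes and 1 of 21 bitter taste receptor genes. Type I interferon genes (16) and potassium channel genes (5) had 0 tags. Olfactory and taste receptors are typical of sensory epithelium and keratin-associated proteins of hair follicle. The median share of unique 30-mers was 61.7% in the interferon genes and 79.5% in the keratin-associated genes. It was 99.1%, 99.9% and 99.4% in the olfactory, taste and potassium channel genes. Why these families had few tags was not tested. By contrast, all 6 frizzled receptor genes, which bind Wnt ligands, had tags, with 28 in Alyref, 62 in Chtop, 15 in Nxf1 and 3 in Control, led by FZD7 and FZD8.

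Of 8 SOX genes 5 had tags, and they took 7.26% of the factor tags on single-exon genes, with 166 in Alyref, 315 in Chtop, 60 in Nxf1 and 13 in Control. Of the 13, 7 lay on SOX12 in Control 2, which had 150 CPM there and 0 in the other Control libraries. Forkhead factors had tags in 9 of 18 genes (82 Alyref, 129 Chtop and 36 Nxf1 tags), G protein-coupled receptors in 10 of 37 (27, 121 and 11), and kelch and BTB proteins in 4 of 6 (49, 131 and 27). The SOX, forkhead and receptor totals rested mostly on single genes, as SOX4 held 453 factor tags, FOXC1 170 and P2RY1 120. The ribosomal protein and translation factor copies had 6 tags in each of Alyref and Chtop, 5 in Nxf1 and 7 in Control. All 7 Control tags were on EIF5AL1, in Control 3, and 25.6% of its 30-mers are unique. The 4 humanin-like genes had 7 tags in Alyref, 3 in Chtop, 16 in Nxf1 and 4 in Control, and so more in the shallower Nxf1 libraries than in Alyref and Chtop together. Genes in no list numbered 448, had a tag in 145 and took 61.7% of the factor tags on single-exon genes.

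Genes with and without tags also differed in length and in poly(A) signals. The classes are cut by tag count, which can rise with length, and the class without tags includes the 184 masked genes. Median transcript length was 3255 nt in genes with 10 or more factor tags, 2085 nt in those with 1 to 9 and 991 nt in those with none, and 80 of the 281 genes of 2000 nt or more were in the first class. Density itself was higher in those 281 than in the 692 shorter genes, by 2.51 ± 0.10 on the log2 scale in Alyref, 2.99 ± 0.24 in Chtop and 2.30 ± 0.79 in Nxf1. Control showed it too, at 2.07 ± 0.74, with libraries from 1.22 to 2.59. A canonical poly(A) signal on the transcribed strand (AATAAA or ATTAAA, 2 words that cannot match at the same place) stood in the last 50 nt of 79.2% of genes with 10 or more tags, 66.1% of those with 1 to 9 and 36.6% of those with none, and in 44.9% of all 973. It stood in 78.8% of multi-exon genes, the same within 1 percentage point as the first class.

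Crosslinks fell on uracil more often than the sequence offers it. Of crosslinked bases, 53.8% ± 5.46 were U in Alyref, 54.3% ± 4.84 in Chtop and 45.8% ± 8.02 in Nxf1 libraries, against 25.6% of the bases of these genes weighted by their tags. Control gave 50.6% ± 9.43, within the range of the factors. Spliced genes gave 50.7%, 54.2% and 48.0% for the 3 factors. Uracil was thus the leading base in all 4 groups, as at the sites printed above.

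Few tags lay near the annotated 3′ end. In the 200 nt downstream the density was lower than in the 200 nt upstream by a log2 ratio of -1.98 ± 0.40 in Alyref, -2.36 ± 1.26 in Chtop and -1.50 ± 1.13 in Nxf1, and the 3 factors overlapped. The Control ratio of -0.58 ± 0.92 rests on 4 tags upstream and 3 downstream, with 0 in Control 1. It was -2.19 ± 0.81 with flanks of 500 nt, where Alyref gave -2.18 ± 0.20, and 0.35 ± 0.71 without genes under 90% unique. The factors are thus not set apart from Control in this measure.

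Of the 12 measures compared per library, each factor was tested against the other 2, which made 36 tests. In 7 the unadjusted p of the exact permutation test was under 0.05, and none passed after adjustment (smallest adjusted p = 0.143). Of these, 5 were Alyref values (against all, first, middle and last exons, and the shift in position) and 2 were Nxf1 values (against all and last exons). Tests of 3 libraries against the 3 of Control cannot go below 0.1.

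Masking and mapping limit which genes could be seen. With bases shared between genes kept, PIGM, a mannosyltransferase of GPI anchor synthesis, had 168 tags, MARS2, the mitochondrial methionyl-tRNA synthetase, had 89, and SOX2 had 17. These had 0 tags otherwise, and the strand alone cannot say which gene they came from. Of the 973 genes, 612 had 90% or more of their 30-mers unique in the genome and 178 had under 50%, among them members of multi-copy families. Of 17 genes with 100 or more tags, EXOSC6, FEM1A and PGBD4 lay under 90%. Among the 85 genes of 90% or more that had 10 or more factor tags, every Chtop library stood above every Alyref library in 21 (24.7%). The share over all 14187 genes with that many tags was 7.82%, and those were not selected for unique 30-mers. The limits of the cut on summed tags and of introns, given above, hold here too.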

How the data were processed

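The deposited values are counts of deduplicated tags per crosslinked base and strand. Per the labels and the study's methods, the authors removed phiX reads with Bowtie 1.1.2, extracted random barcodes with UMI-tools 0.5.3, trimmed with Reaper, mapped uniquely with STAR 2.4.2a to hg19 (GRCh37), merged the lanes of a library and collapsed duplicates. Here, the 12 replicate tables were assigned to genes of GENCODE release 44 mapped to GRCh37, on the strand of the tag, with bases shared between genes left out. Columns of per-sample values not used numbered 0.

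Tags per gene (whole gene span) were tested with edgeR 4.0.16 (R 4.3.3): 1 quasi-likelihood fit of all 12 libraries, TMM, the tool's own filter on low counts, Benjamini-Hochberg adjustment over all genes, threshold 0.05, 6 contrasts. DESeq2 1.42.0 was an alternative. On simulated counts for Alyref against Chtop (3240 genes), 196 of 200 genes changed by 4 times were recovered, with 10 false calls. For 12 measures per library, two-sided exact permutation tests (scipy 1.17.1) compared each factor with the other 2 and with Control, adjusted within 2 families of 36. A pseudocount of 0.5 tag was added in density ratios, and positions used transcripts of 300 nt or more. Named genes were the 25 with most factor tags (UBQLN2 tied with the last of them), the 5 called with the largest fold change per contrast and direction, and the 2 to 4 with most tags per list. The genes, lists and measures were chosen with earlier results of these data known. A tag is 1 cDNA, and depth limits all values of Nxf1 1 and Control 1. Sequences were read from the GRCh37 genome, and the site of 1 of the 10 genes is not reported here.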

Additional observations from a re-analysis of the deposited data

Results flagged for a closer look

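Tags on the antisense strand of single-exon genes, in bases of no annotated gene, were used in no comparison above. The lowest Nxf1 library (Nxf1 1) had 123 CPM of them, above every Control library (0, 85.8 and 108 CPM). That value rests on 1 tag, and Nxf1 2 and 3 had 134 and 162 CPM from 16 and 29 tags. Chtop libraries had 191, 72.4 and 88.5 CPM and Alyref libraries 135, 33.2 and 68.0, which overlapped with Control. SUPT20HL2 held the most, 24 tags, 4 of them in Nxf1, followed by HEXIM1 with 12. The part of transcripts missing from the annotation in these tags was not tested.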

How the results depend on the processing

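Counts of single-exon genes called by edgeR moved with the tool, the filter, what was counted and which library was left out. For Alyref against Chtop, 6 genes were called in the main table, 1 by the DESeq2 Wald test and 24 without the filter. Leaving out 1 library gave 1 to 12 (1 without Alyref 2, and 0, without Alyref 3, to 26 where no filter was used). The filter then passed 6 to 14 single-exon genes, so this range and those of the next contrasts mix different numbers tested. The 12 were of 14 tested without Chtop 1, where 456 of all 4912 genes were called lower in Alyref. The 1 was of 6 tested without Alyref 2, beside 58 of all 2992 genes. For Chtop against Nxf1, the 4 calls became 0 by the DESeq2 Wald test, 17 without the filter and 0 with exonic tags only, and 0 to 7 when a library was left out (0 to 18 without the filter). For Chtop against Control, the 4 calls became 2 by the Wald test and 0 with exonic tags only, and 2 to 6 with a library left out (1 to 9 without the filter, where the full set gave 5). For Alyref against Nxf1, 2 genes were called with exonic tags only and 0 in the main table. EXOSC6 in Chtop against Nxf1 turned to -0.000171 with exonic tags. Exonic counts without the filter, the no-overlap counts at 5 and 30 tags, and leaving out libraries without the filter were chosen after seeing the data. With the replicate block, 6, 4 and 4 genes were called in these 3 contrasts, as without it, and it changed no other call. Replicates 2 of all groups shared HiSeq lanes, as did replicates 1 and 3 together, but same-numbered libraries did not deviate together throughout (18 pairs, r from -0.172 to 0.254, 5 above 0.1). Of 14 named calls, 11 were lost with the DESeq2 Wald test, 6 with exonic tags only and 7 without Chtop 3.

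The 36 measures against the other factors passed an unadjusted threshold in 7 cases, and leaving out a library of the smaller group leaves 2 against 6, where the smallest exact permutation p is 0.0714. All differences below are factor minus the others. For Alyref, density against all exons kept its direction, from -1.12 to -0.95 with a library left out, as it did against first exons (-1.61 to -1.45), middle exons (-1.62 to -1.42) and last exons (-0.46 to -0.32, and -0.38 without the genes under 90% unique). The Alyref shift in position was 0.0623 to 0.0768 with a library left out, 0.0659 with merged exons and 0.0483 without genes under 90% unique. For Nxf1, density against all exons was 0.57 to 0.82 with a library left out and 0.64 with merged exons, against first exons 0.67 to 1.05, against last exons 0.34 to 0.43, and against middle exons 0.76 to 1.13, 0.96 without genes under 90% unique and 0.99 without the 10 genes with most tags. The 3′ UTR to coding ratio of Nxf1 over all genes was 0.45 with shared bases kept and 0.55 without the top 10. For Chtop, the ratio of long to short genes was 0.65 with shared bases kept and 0.44 to 0.74 with a library left out, and the shift in position was -0.0572 to -0.0343.

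Differences near 0 changed sign. The Chtop value against last exons was 0.017 with merged exons and -0.080 to 0.050 with a library left out. The Alyref share of library tags ranged from -0.216 to -0.136, and that of Nxf1 from -0.0727 to 0.0747, with 0.00879 without genes under 90% unique and 0.00118 without the top 10. Mean position with tags pooled gave 0.0015 for Alyref, -0.0182 for Chtop and 0.0167 for Nxf1. The Nxf1 position was also 0.0144 without genes under 90% unique, 0.00813 with shared bases kept, 0.00567 without the top 10 and -0.0196 to 0.00947 with a library left out. The first 200 nt in Nxf1 gave 0.18 without the top 10 and -0.24 to 0.29 with a library left out. Downstream of the end, Alyref gave 0.40 with flanks of 500 nt, 0.80 without genes under 90% unique, 0.10 with shared bases kept and -0.43 to 0.17 with a library left out. Chtop gave -1.29 with 500 nt and -0.98 to 0.11, and Nxf1 gave -0.059 with shared bases kept. Against Control, density over all exons for Chtop gave 0.0084 without genes under 90% unique, 0.20 with merged exons and -0.50 to 0.37 with a library left out, and for Nxf1 -0.0078 without the top 10 and -0.26 to 0.61. The Alyref shift against Control was -0.00327 without genes under 90% unique and -0.0378 to 0.0444 with a library left out. The cause of these moves was not tested. Depth limits the Control and Nxf1 values most, as Control measures rest on 109 tags.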
